A study of Mus musculus with 30 samples.

Results

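Ribosome biogenesis factors are the proteins that transcribe ribosomal RNA, modify and cut it, and assemble it into the small and large ribosomal subunits. Transcripts of 36 such genes were read in kidney, brain and heart of young mice, old mice and old mice given rapamycin. The genes were chosen by name, as subunits and factors of RNA polymerase I and as nucleolar processing factors. The rule itself reads no measured value, but earlier results of these data were known when the genes were chosen. The arrays carried 16593 gene symbols, and 33 of the 36 genes had at least 1 annotated probe, 58 of 25697 probes in all. Polr1b, Wdr43 and Noc2l had no annotated probe and were not analysed here. Nop16, Wdr12, Rrs1 and Dkc1 were detected on no array, and Nolc1 passed the detection filter in brain alone, where it was detected on 5 of 10 arrays. Tests therefore covered 28 factors in kidney, 29 in brain and 28 in heart.

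All 10 mice were wildtype males of the strain C57BL/6JRj, and each gave all 3 tissues, which made 30 Illumina BeadChip arrays of bulk tissue RNA. Each tissue had 4 arrays from controls of 25 weeks, 2 from controls of 25 months, and 4 from mice of 25 months that had received rapamycin from the age of 13 months, for more than a year. Assignment to rapamycin or to vehicle was random, per the labels. In bulk tissue, fewer cells of a type and less RNA per cell cannot be told apart. Groups follow the source name and the age in the labels. The sample titles add the letter y to the 25-month controls and not to the 25-week controls, and the labels do not say what it stands for.

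In the nucleolus, RNA polymerase I transcribes the ribosomal RNA precursor, small nucleolar ribonucleoproteins methylate and pseudouridylate it, and processing factors cut it while ribosomal proteins are added. Rapamycin inhibits mTOR complex 1, a kinase complex known to promote RNA polymerase I transcription and ribosome production when nutrients are plentiful. The transcription factor Myc is known to drive many ribosome biogenesis genes through the E-box, a short palindrome in their promoters.

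The E-box CACGTG, which reads the same on both strands, was looked for in RefSeq promoter windows of the build GRCm38.p6 that run from 250 bases before to 50 bases after each transcription start. Of the 36 factors, 32 had a window in this table, and 5 of these (15.62%) held the motif, against 2187 of 27025 genes (8.09%). These were Pes1, Nop2, Tsr1, Mybbp1a and Wdr43. The windows of the 4 that were measured on the arrays are shown because Pes1, Nop2 and Tsr1 return among the smallest p-values of the age comparisons. Capitals mark the E-box, and all 4 genes lie on the plus strand. A match describes the sequence only and is no evidence of binding. Nhp2, Ubtf and Rrp9, also among the smallest p-values of the age comparisons, held no E-box in their windows. Npm1, among them with the 10 kidney arrays, had no window. Mybbp1a was not among those p-values. A link between the motif and the age differences was not tested. The window of Pes1 is chr11:3963725-3964024 and its E-box starts 3 bases after the start site. The window of Nop2 is chr6:125131633-125131932 and its E-box starts 60 bases before the start site. The window of Tsr1 is chr11:74897830-74898129 with the E-box 25 bases after the start, and that of Mybbp1a is chr11:72441077-72441376 with the E-box 41 bases after it.
Pes1: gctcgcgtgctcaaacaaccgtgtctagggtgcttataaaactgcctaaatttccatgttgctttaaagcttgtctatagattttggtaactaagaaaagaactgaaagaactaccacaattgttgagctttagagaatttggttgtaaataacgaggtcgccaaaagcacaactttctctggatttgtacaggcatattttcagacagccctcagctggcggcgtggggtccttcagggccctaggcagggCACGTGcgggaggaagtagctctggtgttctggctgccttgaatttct
Nop2: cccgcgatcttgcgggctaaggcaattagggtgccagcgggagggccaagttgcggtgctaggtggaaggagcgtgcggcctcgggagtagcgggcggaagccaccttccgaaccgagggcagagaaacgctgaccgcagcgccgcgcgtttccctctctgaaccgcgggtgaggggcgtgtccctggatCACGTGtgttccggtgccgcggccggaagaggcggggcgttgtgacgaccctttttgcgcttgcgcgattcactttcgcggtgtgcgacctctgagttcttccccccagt
Tsr1: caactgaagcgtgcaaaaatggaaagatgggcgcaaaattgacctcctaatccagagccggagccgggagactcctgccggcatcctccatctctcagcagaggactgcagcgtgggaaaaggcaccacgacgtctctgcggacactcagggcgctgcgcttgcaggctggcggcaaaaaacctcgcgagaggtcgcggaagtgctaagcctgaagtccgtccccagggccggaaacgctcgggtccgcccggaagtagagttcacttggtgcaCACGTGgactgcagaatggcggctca
Mybbp1a: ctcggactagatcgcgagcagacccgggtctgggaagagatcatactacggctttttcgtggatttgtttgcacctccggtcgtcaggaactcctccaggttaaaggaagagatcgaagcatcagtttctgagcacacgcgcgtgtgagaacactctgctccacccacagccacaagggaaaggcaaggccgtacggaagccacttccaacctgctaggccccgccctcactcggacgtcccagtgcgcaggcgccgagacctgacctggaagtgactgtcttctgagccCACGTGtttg

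Between 11923 and 13562 probes were detected on 29 of the arrays, of which 41 to 45 were probes of the factors. The kidney array of rapamycin mouse 2 stood apart, with 9989 probes detected, 34 of them for the factors. Across probes, its log2 signals correlated with those of other kidneys at a median of 0.8585, while for the remaining 9 kidneys this median lay between 0.9823 and 0.9921. It was the highest of the 10 kidney arrays for 16 of 28 factors and the lowest for 10, as it was for 45.3% and 37.1% of all genes. Among the remaining 9 kidneys, 25-month control 1, which is 1 of the 2 25-month kidneys, had the lowest median correlation (0.9823). It was the highest of these 9 for 3 and the lowest for 5 of 28 factors, and for 16.4% and 19.4% of all genes. The heart array of rapamycin mouse 1 was the highest for 7 and the lowest for 8 of 28 factors, and for 15.6% and 21% of all genes. That of 25-month control 1, 1 of the 2 25-month hearts, was the highest for 3 and the lowest for 7 (13.5% and 15% of all genes). That of rapamycin mouse 3 was the highest for 0 and the lowest for 7 (11.9% and 12.2%). The heart array of 25-week control 2 also stood apart, in its lymphocyte markers, whose summed signal was 3544 against 113.2 to 160.1 in the other 25-week hearts, and in its proliferation markers (656 against 174.6 to 186.7). Without that mouse 0 of 28 factors passed in any heart comparison, as with it. Of all probes, 113 then passed for age, 0 for rapamycin against 25-month controls and 124 for rapamycin against 25-week controls. Pes1 in heart then differed by -0.52 with age (adjusted p 0.1732, limma) and by -0.51 between rapamycin mice and 25-week controls (0.1027). Kidney values are given from all 10 arrays and from the 9 without that of rapamycin mouse 2. Among the tissue markers, 6 of 7 kidney markers, 7 of 8 brain markers and 8 of 8 heart markers were detected on all arrays of their own tissue. The age labels were checked with C4b, a complement gene known to rise with age, which was higher in the 25-month controls by 2.23 ± 0.12 in brain and 1.95 ± 0.22 in heart (log2 difference ± SE from limma). Lyz2 and Gfap also passed the test in brain and Il33 in heart. In kidney, C4b (1.57 ± 0.29) and Lyz2 passed with 9 arrays and none of the 3 tested check genes passed with 10.

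**Figure D1:**
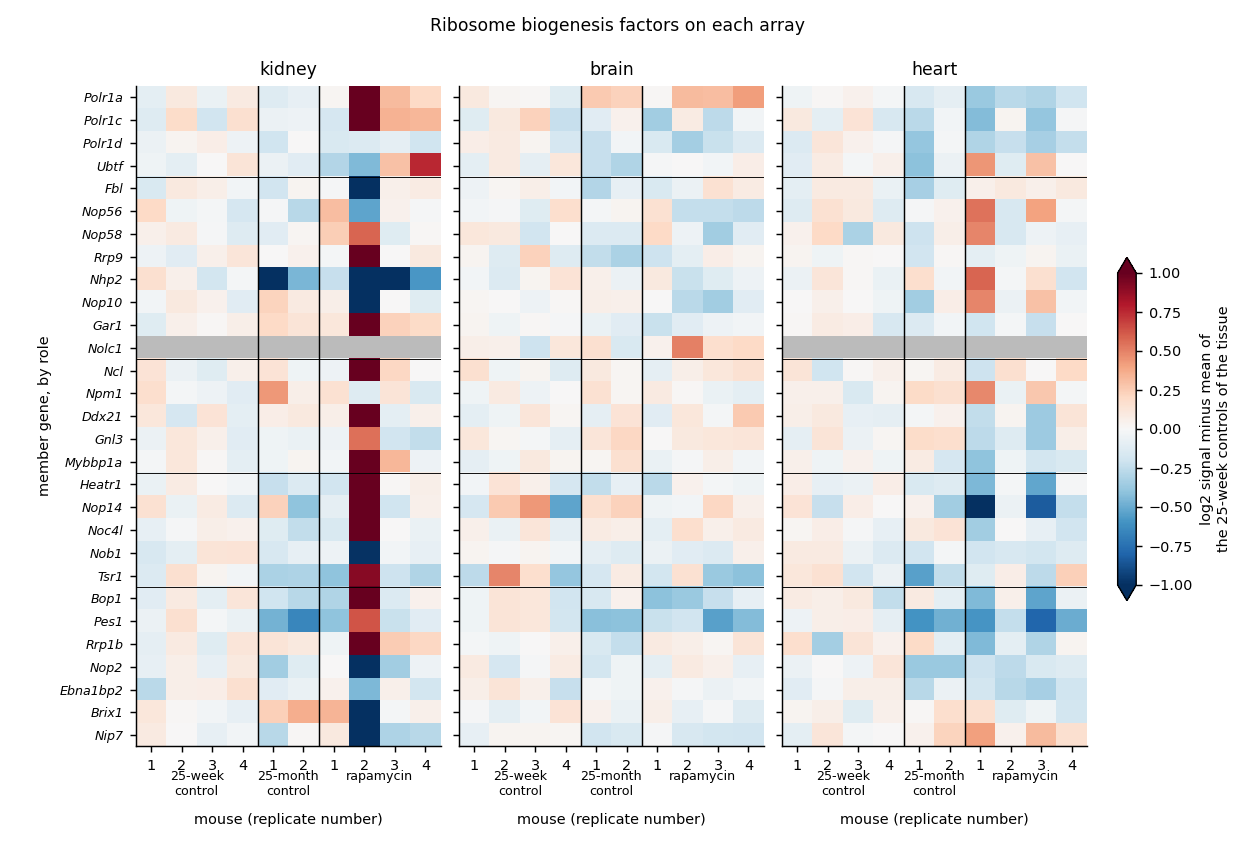
Log2 signal of each factor on each array minus the mean of the 4 25-week controls of the tissue, with genes ordered by role and arrays by group. Grey marks genes not tested in a tissue. The kidney column of rapamycin mouse 2 is the strongest in colour, being the highest array for 16 and the lowest for 10 of 28 factors.

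Most of the factors varied little. Across the 9 kidney arrays the median of the residual SD over factors was 0.126 on the log2 scale, against 0.155 over all genes. It was 0.111 against 0.134 in brain and 0.157 against 0.176 in heart. With all 10 kidney arrays the median was 0.425, against 0.325 over all genes. Gar1, a core protein of the pseudouridylating particles, was the steadiest factor on the 9 kidney arrays (SD 0.07), Rrp1b the steadiest in brain (0.05) and Polr1a in heart (0.05). The most variable were Nhp2 in kidney (0.32), Tsr1 in brain (0.32) and Nop14 in heart (0.37).

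The first comparison asked how the factors differ between 25-month and 25-week controls. In kidney, Pes1 fell 1.47-fold with age when the array of rapamycin mouse 2 was left out, and it was the only one of 28 factors past the test (adjusted p under 0.05 in limma), while 9.63% of all tested probes passed. With all 10 kidney arrays 0 of 28 factors passed (0.0942% of all probes), and 0 of 29 in brain (0.85%) and 0 of 28 in heart (0.624%) passed. At an unadjusted p under 0.05 there were 4 factors in the 9 kidney arrays, 0 in the 10, 4 in brain and 3 in heart, where 25.8%, 6.34%, 12.6% and 12.5% of all probes had such a p. The median log2 difference over the tested factors was -0.08 in the 9 kidney arrays, -0.03 in brain and -0.08 in heart, and over all probes it was -0.02, -0.01 and -0.01. Differences were negative for 20 of 28 factors in the 9 kidney arrays, for 18 of 29 in brain and for 18 of 28 in heart. Signs of genes read on the same arrays are not independent, here and in the sign counts below. A shared shift of the factors was not tested.

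Pes1 encodes pescadillo, which forms the PeBoW complex with Bop1 and Wdr12 and is needed to process the precursor of large-subunit RNA. In kidney its log2 signal was 7.80, 8.02, 7.84 and 7.79 in the 25-week controls and 7.39 and 7.21 in the 25-month controls, on the scale of all 10 arrays that is used for every kidney array value here. In brain it was 8.26, 8.43, 8.41 and 8.12 in the 25-week controls and 7.88 and 7.89 in the 25-month controls. In heart it was 7.59, 7.70, 7.71 and 7.55 against 7.04 and 7.16. In each of the 3 tissues both 25-month controls lay below all 4 25-week controls. Groups separated in this way, lower with age in all 3 tissues, at 112 of 11525 probes (0.972%), and Pes1 was the one factor among them. The log2 difference was -0.56 ± 0.12 with 9 kidney arrays (adjusted p 0.01744, limma) and -0.56 ± 0.26 with 10 (0.8324). It was -0.42 ± 0.12 in brain (0.1529) and -0.54 ± 0.14 in heart (0.1249). Taking the replicate number as a block, the 9-array kidney difference was -0.55 with an adjusted p of 0.05744. It was -0.66 (0.09923) without 25-month mouse 1 and -0.47 (0.08258) without 25-month mouse 2, and the call was lost in all 3 of these fits.

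**Figure D2:**
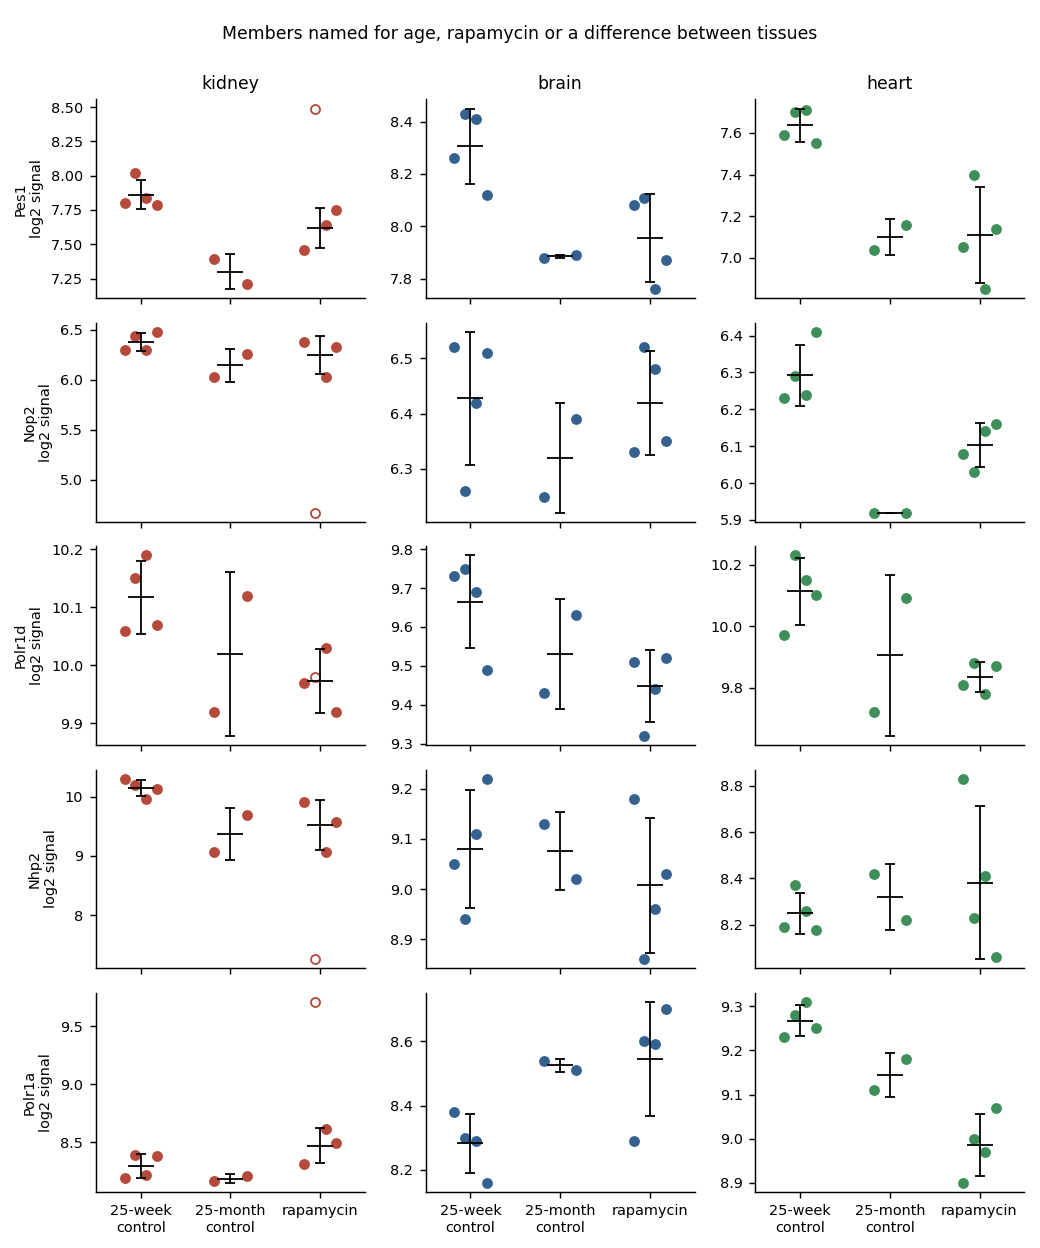
Log2 signal of 5 factors on every array, with 1 row per gene and 1 column per tissue. Points are mice, bars are means with SD, and the open point is the kidney array of rapamycin mouse 2, which is left out of its mean. The 25-month controls and the rapamycin mice of brain and heart lie below the 25-week controls for Pes1, as they do for Nop2 in heart. For Polr1d in brain the panel shows the brighter probe, at which rapamycin mice and 25-week controls overlap.

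No other large-subunit factor passed the test in any tissue. Nop2, a methyltransferase of large-subunit RNA, had log2 signals of 6.23, 6.29, 6.24 and 6.41 in the hearts of 25-week controls and 5.92 in both 25-month controls. The hearts of the 2 ages did not overlap, and the difference was -0.37 ± 0.11 (unadjusted p 0.004625, adjusted p 0.1481, limma). Its dimmer probes differed by -0.41 ± 0.14 and -0.15 ± 0.14. It was -0.24 in the 9 kidney arrays and -0.11 in brain. In brain all 7 tested large-subunit factors (Bop1, Pes1, Rrp1b, Nop2, Ebna1bp2, Brix1 and Nip7) had negative differences, from -0.42 to -0.01. In kidney 5 of the 7 and in heart 4 of the 7 did not lie above 0. Brix1, an assembly factor, was 9.26, 9.16, 9.12 and 9.07 in kidneys of 25-week controls and 9.39 and 9.51 in those of 25-month controls, a difference of 0.29 ± 0.12 in the opposite direction (adjusted p 0.153, 9 arrays).

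Of the small-subunit factors, Tsr1, which acts late in small-subunit maturation, had the smallest p-values in kidney and heart, and in brain it differed by -0.05 ± 0.22. In kidney it was 5.17, 5.47, 5.34 and 5.28 in the 25-week controls and 4.99 and 5.0 in the 25-month controls. In heart it was 5.25, 5.29, 4.95 and 5.08 against 4.60 and 4.89. The ages did not overlap in either tissue, and the differences were -0.33 ± 0.11 in the 9 kidney arrays (adjusted p 0.09059) and -0.40 ± 0.16 in heart (0.3166). Heatr1, Nop14, Noc4l, Nob1 and Tsr1 all had negative differences in kidney, from -0.33 to -0.09. In brain 3 of the 5 and in heart 4 of the 5 were negative. A second probe of Heatr1, a component of the early small-subunit processome, differed by -0.44 ± 0.11 in brain (adjusted p 0.09545), while its brighter probe differed by -0.16.

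Nhp2, a core protein of the pseudouridylating ribonucleoproteins, was lower in the kidneys of 25-month controls by -0.77 ± 0.22 with 9 arrays, at an adjusted p of 0.05097 that missed the threshold. Its kidney signals were 10.31, 10.20, 9.97 and 10.13 at 25 weeks and 9.06 and 9.69 at 25 months. The ages did not overlap in kidney, and in brain and heart the differences were -0.01 and 0.07. A dimmer second probe was detected on 3 kidney arrays, all of them 25-week controls, so it entered the test only through the group where it is high and its difference of -0.43 is no support. Using the replicate number as a block, the brighter probe differed by -0.97 and passed (adjusted p 0.02857). Rrp9, which binds the U3 small nucleolar RNA, was 7.02, 6.86, 7.22 and 6.86 in brains at 25 weeks and 6.74 and 6.67 at 25 months, without overlap (-0.28 ± 0.12, adjusted p 0.3361). Fibrillarin (Fbl, the RNA methyltransferase), Nop56, Nop58, Nop10 and Gar1 differed by -0.22 to 0.16 in all 3 tissues.

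The 4 RNA polymerase I genes tested all had negative differences in kidney (-0.11 to -0.06) and heart (-0.24 to -0.12). Ubtf, which loads the polymerase onto ribosomal DNA, was 8.64, 8.83, 8.65 and 8.85 in brains at 25 weeks and 8.51 and 8.44 at 25 months, without overlap (-0.27 ± 0.09, adjusted p 0.2439). Polr1a, the largest subunit, went the other way in brain, with 8.38, 8.30, 8.29 and 8.16 at 25 weeks and 8.54 and 8.51 at 25 months (0.25 ± 0.11, adjusted p 0.3992, groups apart). None of the abundant nucleolar proteins passed the test. Nucleolin (Ncl), nucleophosmin (Npm1), the helicase Ddx21, nucleostemin (Gnl3) and Mybbp1a were all above 0 in brain, by 0.03 to 0.16, 4 of the 5 were above 0 in heart, by 0.01 to 0.18, and in kidney 3 were above and 2 below 0, from -0.05 to 0.25.

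Groups did not overlap for 9 of 28 factors in kidney with 9 arrays (2 higher and 7 lower), 11 of 29 in brain (3 and 8) and 9 of 28 in heart (3 and 6). Over all probes the groups were apart for 37.3% in kidney (17.7% higher and 19.6% lower), 23.1% in brain (11.4% and 11.6%) and 26.5% in heart (13% and 13.5%). Macrophage markers moved with the same comparison. Of the 15 tested, 12 rose in the 9 kidney arrays and 1 in the 10, 10 in brain and 2 in heart, and none fell. Their summed signal was 1376 to 1853 in kidneys of 25-week controls and 3464 to 5275 in those of 25-month controls (9 arrays), 2580 to 2890 and 4136 to 4339 in brain, and 2843 to 4916 and 4860 to 7236 in heart. Ptprc, the leukocyte marker of that list, was detected on no brain or heart array, and of the 6 to 8 proliferation markers tested 0 passed in any tissue. Neutrophil markers also rose with age, 3 of 5 tested in the 9 kidney arrays (0 of 6 in the 10), 6 of 9 in brain and 3 of 5 in heart, and none fell. Their summed signal lay between 138.4 and 212.9 at 25 weeks and between 544.8 and 1849 at 25 months in the 9 kidney arrays. The ranges were 141.9 to 372.9 against 878.1 to 2962 for brains, and 123.5 to 230.2 against 743.9 to 4570 for hearts. Mpo, a granule gene of that list, was detected on no array of any tissue. Of the 7 kidney tissue markers, 4 rose (Aqp2, Slc12a3, Umod and Slc12a1) and 1 fell in the 9 kidney arrays, and 0 passed in the 10. The kidney marker Slc34a1 was higher in brains of 25-month controls than of 25-week controls (1.07 ± 0.09, adjusted p 0.0001019, limma). It was lower in brains of rapamycin mice than of 25-month controls (-1.11 ± 0.09, adjusted p 0.0004409, limma). The cause was not tested. The part of these cells in the differences above was not tested.

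**Figure D3:**
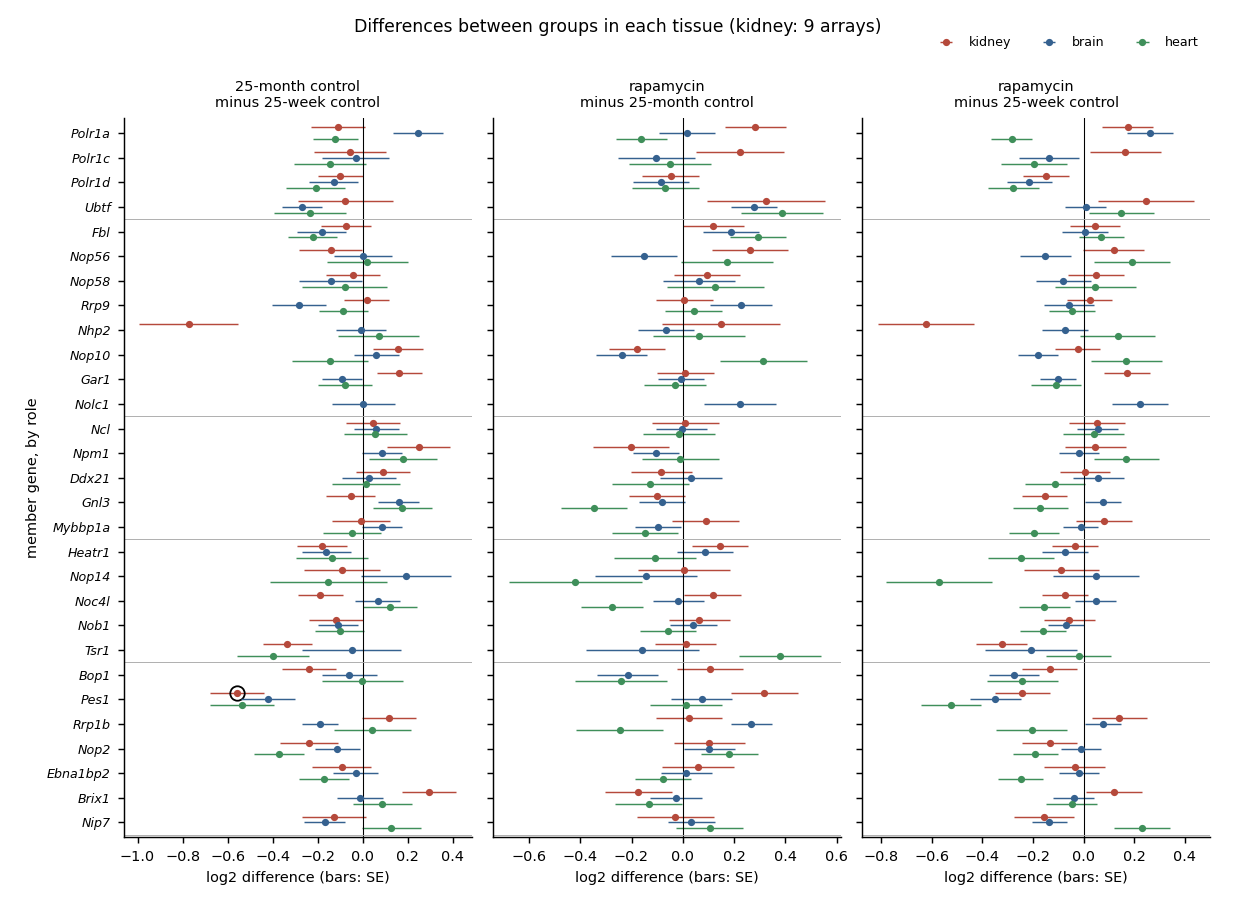
Log2 differences of each factor (points) with limma standard errors (bars) for the 3 comparisons, coloured by tissue, with kidney from 9 arrays. The black ring marks the 1 difference past the test, Pes1 with age in kidney (-0.56 ± 0.12). The other points lie between -0.77 and 0.39.

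The second comparison asked how rapamycin mice differ from controls of the same age. No factor passed the limma test: 0 of 28 in kidney with 9 or with 10 arrays (0% of all probes in both), 0 of 29 in brain (0.0276%) and 0 of 28 in heart (0%). At an unadjusted p under 0.05 there were 2 factors in the 9 kidney arrays, 0 in the 10 of them, 3 in brain and 5 in heart, against 11.8%, 3.03%, 9.83% and 11.6% of all probes. The median difference was 0.06 in the 9 kidney arrays, 0 in brain and -0.04 in heart, and 0.01, 0 and -0.01 over all probes. Positive differences numbered 21 of 28 in kidney, 14 of 29 in brain and 11 of 28 in heart. Groups did not overlap for 4 factors in each of these sets of kidney and brain arrays and for 5 in heart, against 24.5%, 20.3% and 19.8% of all probes.

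In kidney, Pes1 read 7.46, 8.49, 7.64 and 7.75 in rapamycin mice 1 to 4, the second value being that of the array that stood apart. All 4 lay above both 25-month controls (7.39 and 7.21). The difference was 0.32 ± 0.13 with 9 arrays (adjusted p 0.3713) and 0.54 ± 0.26 with 10 (0.8254). In brain Pes1 was 8.08, 8.11, 7.76 and 7.87 under rapamycin and in heart 7.05, 7.40, 6.85 and 7.14. These overlapped with the 25-month controls in both tissues, with differences of 0.07 ± 0.12 and 0.01 ± 0.14. A difference of the kidney value from the other tissues was not shown, as its test gave 0.24 ± 0.18 against brain and 0.31 ± 0.18 against heart over 29 arrays (adjusted p 0.9163 and 0.5283, limma).

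Among the RNA polymerase I genes, Polr1a was 8.16 and 8.21 in kidneys of 25-month controls and 8.31, 9.71, 8.61 and 8.49 in those of rapamycin mice, without overlap (0.28 ± 0.12, adjusted p 0.3967, 9 arrays). Its differences were 0.02 in brain and -0.16 in heart. Polr1c, shared by RNA polymerases I and III, was 7.96 and 7.97 against 7.85, 9.55, 8.37 and 8.35 in kidney, where the groups overlap (0.22 with 9 arrays and 0.57 ± 0.38 with 10). Ubtf in brain was 8.51 and 8.44 in the 25-month controls and 8.73, 8.74, 8.71 and 8.81 under rapamycin, without overlap (0.28 ± 0.09, adjusted p 0.4017). In heart it was 7.42 and 7.77 against 8.27, 7.71, 8.12 and 7.83, with overlap (0.39 ± 0.16, adjusted p 0.41).

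In heart the ribonucleoprotein factors were above 0 in 6 of 7 cases, by up to 0.31, and the 5 nucleolar proteins were below 0, from -0.35 to -0.01. Fbl in heart was 8.36 and 8.57 in the 25-month controls and 8.74, 8.79, 8.74 and 8.79 under rapamycin, without overlap (0.29 ± 0.11, adjusted p 0.3707). Gnl3, a GTPase of the nucleolus, was 9.75 and 9.74 against 9.31, 9.44, 9.21 and 9.63, without overlap (-0.35 ± 0.13, adjusted p 0.3673), and its dimmer probe differed by -0.03 ± 0.16. Tsr1 in heart was 4.60 and 4.89 against 5.02, 5.21, 4.88 and 5.38, where 1 rapamycin mouse lay below the higher control (0.38 ± 0.16, adjusted p 0.4095). In brain, 4 of 8 ribonucleoprotein factors and 1 of 5 nucleolar proteins were above 0. Whether heart and brain differ was tested gene by gene, and 0 factors passed that test in either fit.

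In brain, Rrp1b, a nucleolar protein of large-subunit assembly, had the smallest p. It was 6.09 and 6.00 in the 25-month controls and 6.33, 6.30, 6.26 and 6.37 under rapamycin, with all 4 rapamycin mice above both controls (0.27 ± 0.08, adjusted p 0.3939). Nop10, a small core protein of the pseudouridylating particles, was 9.93 and 9.92 against 9.87, 9.6, 9.52 and 9.76, with all 4 rapamycin mice below both controls (-0.24 ± 0.10, adjusted p 0.4821). The dimmer probes of these genes disagreed, with differences of -0.03 ± 0.16 for Rrp1b and 0.03 ± 0.16 for Nop10. Nop56 in kidney was 6.12 and 5.85 against 6.44, 5.60, 6.17 and 6.12, with overlap (0.26 ± 0.15 with 9 arrays, adjusted p 0.5065). The dimmer Heatr1 probe in brain was 6.52 and 6.58 in the 25-month controls and 6.87, 7.25, 7.17 and 7.07 under rapamycin. Those groups did not overlap and differed by 0.53 ± 0.11 (unadjusted p 0.000304, adjusted p 0.2171), against 0.09 at the brighter probe. A dimmer probe of Mybbp1a, a nucleolar protein known to bind Myb, likewise differed by 0.39 ± 0.12 in heart (adjusted p 0.3182), against -0.15 at its brightest probe.

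The third comparison set rapamycin mice against 25-week controls, so that age and treatment differ together. Its controls are those of the first comparison and its treated mice those of the second. No factor passed within a tissue: 0 of 28 in kidney with 9 arrays (8.47% of all probes) or 10 (0.369%), 0 of 29 in brain (1.09%) and 0 of 28 in heart (0.944%). At an unadjusted p under 0.05 there were 3 factors in the 9 kidney arrays, 1 in the 10, 4 in brain and 6 in heart, against 26.2%, 13.2%, 12.8% and 17.9% of all probes. The median difference was -0.01 in the 9 kidney arrays, -0.04 in brain and -0.13 in heart, and -0.02, -0.01 and 0 over all probes. Differences were negative for 14 of 28 factors in kidney, 19 of 29 in brain and 19 of 28 in heart. Groups did not overlap for 5 factors in kidney, 1 in brain and 5 in heart, against 23.6%, 7.84% and 10.7% of all probes.

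Pes1 was lower in rapamycin mice than in every 25-week control in brain and heart, and in kidney in 3 of 4 mice, the exception being the array that stood apart. The difference was -0.52 ± 0.12 in heart (adjusted p 0.06116), -0.35 ± 0.10 in brain (0.1356), -0.24 ± 0.11 in kidney with 9 arrays (0.1773) and -0.02 with 10. Polr1a in heart was 9.23, 9.28, 9.31 and 9.25 at 25 weeks and 8.90, 9.0, 8.97 and 9.07 under rapamycin, without overlap (-0.28 ± 0.08, adjusted p 0.1351). In brain it read 8.38, 8.30, 8.29 and 8.16 at 25 weeks and 8.29, 8.60, 8.59 and 8.70 under rapamycin, with overlap and the opposite sign (0.26 ± 0.09, adjusted p 0.2445). The 2 dimmer probes of Polr1a differed by 0.05 ± 0.15 and 0.01 ± 0.10 in heart and by -0.15 ± 0.11 and 0.09 ± 0.09 in brain.

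Polr1d, a small subunit shared by RNA polymerases I and III, was the one factor with a probe at which all 4 rapamycin mice lay below all 4 25-week controls in all 3 tissues. This pattern was found at 7 of 11525 probes (0.0607%). In kidney that probe read 10.06, 10.15, 10.19 and 10.07 at 25 weeks and 9.97, 9.98, 10.03 and 9.92 under rapamycin. In heart it read 9.97, 10.23, 10.15 and 10.10 against 9.81, 9.88, 9.78 and 9.87. In brain it read 9.67, 9.63, 9.68 and 9.51 against 9.49, 9.48, 9.39 and 9.36. The differences were small, at -0.15 ± 0.09 in the 9 kidney arrays (adjusted p 0.3277), -0.19 ± 0.08 in brain (0.3157) and -0.28 ± 0.10 in heart (0.2085). A second Polr1d probe, the brighter one in brain, differed by -0.21 ± 0.09 there, by -0.11 ± 0.10 in heart and by -0.16 ± 0.11 in the 9 kidney arrays, with overlap in each tissue.

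Nhp2 in kidney was 9.92, 7.25, 9.07 and 9.57 under rapamycin, all below the 4 25-week controls (-0.62 ± 0.19 with 9 arrays, adjusted p 0.07148, and -1.20 ± 0.49 with 10, adjusted p 0.3554). Tsr1 in kidney was 4.91, 5.10 and 5.01 in rapamycin mice 1, 3 and 4, below all 25-week controls, and 6.22 in mouse 2, above them (-0.32 ± 0.10 with 9 arrays, adjusted p 0.06966). Gar1 was 8.71, 8.88, 8.84 and 8.89 at 25 weeks and 8.94, 10.05, 9.06 and 9.02 under rapamycin, without overlap, on the higher side (0.17 ± 0.09 with 9 arrays, adjusted p 0.2427). Bop1, the partner of Pes1, was 7.12, 7.29, 7.27 and 6.97 in brains at 25 weeks and 6.75, 6.79, 6.93 and 7.08 under rapamycin, with overlap at 1 mouse (-0.27 ± 0.10, adjusted p 0.2576). Its difference was -0.24 in heart and -0.13 in the 9 kidney arrays.

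In heart, 6 of 7 large-subunit factors and all 5 small-subunit factors had negative differences from the 25-week controls, down to -0.57. Ebna1bp2, a large-subunit assembly factor, was 8.04, 8.14, 8.21 and 8.21 at 25 weeks and 7.97, 7.87, 7.82 and 7.95 under rapamycin, without overlap (-0.25 ± 0.09, adjusted p 0.2073). Its 2 dimmer probes differed in the other direction, by 0.30 ± 0.15 and 0.10 ± 0.14. Nop14, a small-subunit factor, was 6.26, 5.89, 6.19 and 6.12 against 4.95, 6.06, 5.29 and 5.88, with overlap and a wide spread under rapamycin (-0.57 ± 0.21, adjusted p 0.2073). Macrophage markers again moved with the comparison, 13 of 15 rising in the 9 kidney arrays (3 in the 10), 10 in brain and 5 in heart, and their summed signal under rapamycin was 3707 to 4996, 4150 to 4603 and 4865 to 7087. Of the neutrophil markers 1 rose in kidney with 9 or 10 arrays, 0 in brain and 1 in heart, and of the lymphocyte markers 5 of 8 rose in the 9 kidney arrays and 0 of 9 in the 10. Against the 25-month controls 0 of these markers passed in any tissue. Their part in the results on the factors was not tested.

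As an addition made after the data had been seen, the same contrasts were averaged over the 3 tissues in 1 limma fit over all 30 arrays, with the mouse as a random effect. With age, Pes1 fell by -0.50 ± 0.11 on the log2 scale, 1.42-fold, and was the 1 of 29 factors past the test (adjusted p 0.01459, and 1.62% of all probes). It no longer passed without 25-week mouse 2 (-0.47, adjusted p 0.07583), 25-week mouse 3 (-0.49, 0.07232), 25-month mouse 1 (-0.51, 0.4454) or 25-month mouse 2 (-0.50, 0.1254). Without the kidney array of rapamycin mouse 2, 3 of 29 factors passed (7.18% of all probes), namely Pes1 (-0.50 ± 0.08, adjusted p 0.0001578), Nop2 (-0.24 ± 0.06, 0.0208) and Polr1d (-0.19 ± 0.06, 0.04784). Between rapamycin mice and 25-month controls 0 of 29 passed with 30 arrays (0.0176%) or 29 (1.39%), and Pes1 differed by 0.20 ± 0.11 and 0.14 ± 0.08. At an unadjusted p under 0.05 there was 1 of 29 factors over 30 arrays, against 6.95% of all probes.

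Averaged over tissues, rapamycin mice differed from 25-week controls at 1 of 29 factors over 30 arrays (2.88% of all probes). This was Polr1d, which fell by -0.21 ± 0.05, 1.15-fold (adjusted p 0.02408). It lost the call when any 1 of the 25-week mice or rapamycin mouse 3 or 4 was left out, with adjusted p-values of 0.05126 to 0.1453 and differences of -0.23 to -0.19. Under median scaling Polr1d also lost it (-0.20, adjusted p 0.09184) and Pes1 passed in its place (-0.28, 0.009667). Without the kidney array of rapamycin mouse 2, Polr1d (-0.21 ± 0.05, adjusted p 0.009229) and Pes1 (-0.37 ± 0.07, 0.0006158) passed, where 8.62% of all probes did. With all 30 arrays Pes1 differed by -0.30 ± 0.09 (0.07632).

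Levels across tissues were read in the 25-week controls, with 30 arrays normalised together. The factors past the test between tissues numbered 12 of 29 between kidney and brain (63.2% of all probes), 11 between kidney and heart (53.4%) and 9 between brain and heart (62.9%). Of the 29, 8 were higher in kidney than in brain (31.8% of all probes), 2 higher in kidney than in heart (24.1%) and 2 higher in brain than in heart (29.7%). The median size of the difference was 0.36, 0.28 and 0.31 over the factors and 0.58, 0.42 and 0.56 over all probes. Without the kidney array of rapamycin mouse 2, whose spread enters the error of every comparison, the counts were 17 (72.3% of all probes), 18 (64.1%) and 19 (71.8%). By role, RNA polymerase I genes were called in 2, 3 and 3 of 4 cases over 30 arrays and in 4, 3 and 3 over 29, in the order kidney against brain, kidney against heart, brain against heart. Ribonucleoprotein factors were called in 6, 3 and 2 of 8 cases (6, 5 and 6 over 29 arrays) and nucleolar proteins in 3 of 5 in each (3, 4 and 3). The counts of large-subunit factors, 1 of 7 in each, became 2, 3 and 4 over 29 arrays. Those of small-subunit factors, 0, 1 and 0 of 5, became 2, 3 and 3, and the 1 call over 30 arrays was Nob1, the nuclease that makes the last cut in small-subunit RNA. All these calls were read at the brightest probe. For the large-subunit factor Ebna1bp2 that probe was lowest in brain (mean 7.61, against 8.04 in kidney and 8.38 in heart). A dimmer probe was highest in brain (7.05, against 5.59 and 5.93). So was another (6.13, against 4.6 and 4.72), which was detected in 0 kidneys of 25-week controls.

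Nop56, a core protein of the methylating ribonucleoproteins, had the largest range between tissues. Its log2 signal was 7.99, 8.01, 7.89 and 8.20 in brain, 6.80, 7.07, 7.02 and 6.79 in heart and 6.43, 6.19, 6.21 and 6.07 in kidney. The 3 tissues were apart from each other, and the order brain, heart, kidney held in all 10 mice. Brain exceeded kidney by 1.79 ± 0.14, 3.47-fold (adjusted p 2.038e-11, limma) and heart by 1.10 ± 0.14, and kidney minus heart was -0.69 ± 0.14 (adjusted p 0.0001911).

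Nhp2 was highest in kidney, at 10.26, 10.15, 9.95 and 10.09, against 8.86, 8.75, 8.92 and 9.04 in brain and 8.42, 8.59, 8.48 and 8.40 in heart. Kidney was apart from both, by 1.22 ± 0.29 over brain and 1.64 ± 0.29 over heart, in 9 of 10 mice each, and the 0.42 ± 0.29 between brain and heart missed the threshold (adjusted p 0.2213) but passed without the kidney array of rapamycin mouse 2 (0.42, adjusted p 0.009985). Polr1a was highest in heart, at 9.43, 9.47, 9.49 and 9.44, against 8.21, 8.41, 8.24 and 8.39 in kidney and 8.16, 8.07, 8.06 and 7.92 in brain. Kidney minus heart was -1.14 ± 0.16 and brain minus heart -1.41 ± 0.16, while kidney and brain, the neighbours in this order, differed by 0.26 ± 0.16, which missed the threshold with 30 arrays (adjusted p 0.1748) and passed with 29 (0.26 ± 0.08, adjusted p 0.00513).

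Ddx21, an RNA helicase of the nucleolus, followed the order heart, kidney, brain, with 7.96, 8.0, 7.82 and 7.81, then 7.35, 7.08, 7.38 and 7.15, then 6.51, 6.57, 6.73 and 6.64. All 3 pairs of tissues were apart and past the test, and brain minus heart was -1.28 ± 0.17. Polr1c was highest in kidney, at 7.92, 8.22, 7.86 and 8.20, against 7.08, 7.32, 7.45 and 6.97 in brain and 7.42, 7.22, 7.47 and 7.16 in heart. The last 2 overlapped (-0.11 ± 0.20, adjusted p 0.6499), and kidney exceeded them by 0.85 ± 0.20 and 0.73 ± 0.20. Mybbp1a was 8.78, 8.69, 8.77 and 8.69 in heart, 8.36, 8.50, 8.40 and 8.29 in kidney and 7.81, 7.86, 8.01 and 7.93 in brain. Heart and kidney, next to each other in that order, differed by -0.35 ± 0.18 (adjusted p 0.1142), short of the threshold, and passed over 29 arrays (-0.34, adjusted p 0.0007312).

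The factors with the smallest ranges were Brix1, Gnl3 and Nip7, all detected in the 3 tissues. The range of tissue means was 0.08 for Brix1, 0.16 for Gnl3 and 0.17 for Nip7. Nip7, a large-subunit factor, was 7.94, 7.85, 7.77 and 7.81 in kidney, 7.79, 7.90, 7.90 and 7.89 in brain and 7.61, 7.82, 7.69 and 7.70 in heart, with overlap between all tissues. Under median scaling in place of quantile normalisation, Brix1 and Gnl3 no longer kept the sign of their differences from heart.

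**Figure D4:**
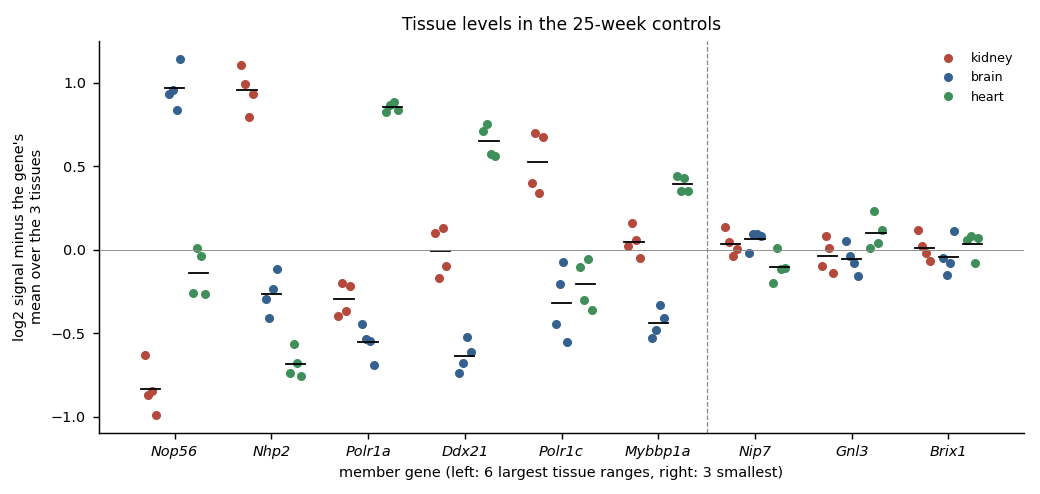
Log2 signal of 9 factors in the 25-week controls minus the mean of the gene over the 3 tissues, with 4 mice per tissue (points) and their mean (line). The 6 factors on the left have the largest ranges between tissue means (0.83 to 1.79) and the 3 on the right the smallest (0.08 to 0.17).

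Whether the tissues respond differently was tested for each of the 3 comparisons and each pair of tissues. Over 30 arrays 0 of 29 factors passed in any of the 9 tests. For age, 0.674% of all probes passed between kidney and brain, 0.985% between kidney and heart and 0.205% between brain and heart. For rapamycin against the 25-month controls these shares were 0%, 0.00586% and 0.00586%, and against the 25-week controls 1.37%, 3.5% and 0.188%. Over the 29 arrays, rapamycin mice against 25-week controls gave 2 factors between kidney and heart (6.56% of all probes). Nhp2 differed by -0.75 ± 0.21 (adjusted p 0.03264), its kidney difference being -0.62 and its heart difference 0.13. Polr1a differed by 0.44 ± 0.12 (0.02619), with 0.17 in kidney and -0.28 in heart. Between brain and heart Polr1a differed by 0.54 ± 0.11 (adjusted p 0.01605, 1 of 29 factors and 0.824% of all probes), with 0.26 in brain. These Polr1a values are from its brightest probe. The dimmer probes, given above, had differences of smaller size in brain and heart and were not tested between tissues. No such test of Pes1 passed over 30 or 29 arrays, and its age difference in kidney differed from that in brain by -0.09 ± 0.17 and from that in heart by -0.01 ± 0.17 over 29 arrays.

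Genes of the same pathway outside the 36 were read in the same fits. Of 105 other ribosome biogenesis genes 90 were on the arrays and 77 to 80 were tested per tissue. With age 1 of 79 fell in the 9 kidney arrays, the large-subunit methyltransferase Ftsj3 (-0.49 ± 0.12, adjusted p 0.0333), where 9.63% of all probes passed, and 0 passed in the 10 kidney arrays, brain or heart. Between rapamycin mice and 25-month controls 0 passed in any tissue. Against 25-week controls, Utp23 fell in the 9 kidney arrays (-0.35 ± 0.09, adjusted p 0.03815) and Rbm28 in brain (-0.36 ± 0.07, 0.02899), each the only one of 79, where 8.47% and 1.09% of all probes passed, and 0 of 77 passed in heart. The median age difference of this list was -0.07 in kidney, -0.03 in brain and -0.06 in heart.

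Of the other RNA polymerase I genes 11 or 12 were tested per tissue and 0 passed in any comparison. The RNA exosome, which trims and degrades nuclear RNA, had 1 call among 10 tested genes. This was Mtrex, its helicase, which fell in the 9 kidney arrays of rapamycin mice against 25-week controls (-0.65 ± 0.14, adjusted p 0.01713). There 8.47% of all probes passed. The Myc network had 1 call among 6 tested genes, Mlx, which fell with age in the 9 kidney arrays (-0.51 ± 0.13, adjusted p 0.03796). In that comparison 9.63% of all probes passed. Myc itself was detected on no array of kidney, brain or heart. Between tissues of the 25-week controls, where 63.2%, 53.4% and 62.9% of all probes passed, the counts were 45, 30 and 40 of 81 other ribosome biogenesis genes (58, 41 and 55 of 80 over 29 arrays), 5, 4 and 7 of 12 RNA polymerase I genes and 5, 8 and 5 of 10 exosome genes, for kidney against brain, kidney against heart and brain against heart.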

How the data were processed

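Gene expression was read on 30 arrays, 1 per tissue and mouse. Trizol and RNeasy columns served to extract RNA, per the labels, which name an Ambion MessageAmp kit for labelling. The submitters' processing notes name GenomeStudio 2011.1, and further steps are not given in the sources used here. Per the file headers, the deposited non-normalized table holds a signal intensity per probe and array on a linear scale. Each deposited intensity has its own detection p-value, per the file headers. A second matrix deposited by the authors, with intensity values that by their distribution are background-subtracted and normalised, served as an alternative.

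Within each tissue, intensities were corrected and quantile-normalised with neqc (limma 3.58.1, R 4.3.3, data.table version 1.17.8; offset 16) and put on a log2 scale from the deposited values. To be tested, a probe needed detection (p-value under 0.05) on 2 or more arrays, and the brightest probe stood for a gene. limma's lmFit and eBayes gave differences with standard errors and Benjamini-Hochberg adjusted p-values over all tested probes, with 0.05 as the threshold. All 3 groups of a tissue shared 1 estimate of the spread, since 1 group had 2 mice. Comparisons of tissues used a joint normalisation of 30 arrays and treated mouse as a random effect (correlation 0.085, and 0.083 over 29 arrays). Arrays give no counting depth, so their number limits the precision.

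The factors, gene lists and tests were chosen with earlier results of these data known. Every factor is named. Array values are given for factors past the test or, with fewer than 5, for the 3 with the smallest p, in kidney from 9 arrays. They are also given for the 6 largest and 3 smallest tissue ranges. Npm1 was among the 3 smallest p for age in the 10 kidney arrays, and its array values are not given. A few further factors were picked after their values were seen. Other lists name up to 4 passing genes, smallest p first. Symbols come from the platform annotation: of 25697 probes 23978 had 1 symbol, 0 several and 1719 none. Same-numbered mice of different groups are different animals. Their deviations from the group means correlated at 0.35, 0.17 and 0.19 in the 9 kidney arrays, and at -0.16 to 0.31 in the other sets, so the replicate number was tried as a block. The fits within tissues and of tissue levels were run on simulated data with independent errors. Those data held no array that stands apart, and the averaged contrasts and the differences between tissues in response were not simulated. No chip or slide was named in the tables used, so neither entered as a block. Alternatives covered background correction, scaling, filters, the authors' matrix, array weights, the block, and leaving out each mouse.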

Additional observations from a re-analysis of the deposited data

Results flagged for a closer look

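Within groups of 4 mice, 1 array lay far from the other 3 for 21 of the 170 combinations of factor, tissue and group, where chance gives about 1 in 20. Of these, 13 were the kidney array of rapamycin mouse 2, the array that stood apart in all its probes. The remaining flags were about as frequent as chance gives, and some rest on small gaps. It was high for Bop1 (8.65 on the log2 scale, others 6.33 to 6.67), Ddx21 (8.45), Gar1 (10.05), Ncl (9.31), Noc4l (8.44), Nop14 (8.19, others 5.79 to 6.04), Rrp1b (7.64), Rrp9 (7.5) and Tsr1 (6.22). It was low for Fbl (8.12, others 9.22 to 9.31), Nip7 (5.15, others 7.5 to 7.91), Nob1 (6.42) and Nop10 (8.93).

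The brain of rapamycin mouse 1 was low for Gnl3 (9.72, others 9.82 to 9.84) and high for Nip7 (8.10) and Nop56 (8.40, others 7.99 to 8.01). The brain of 25-week control 1 was low for Nip7 (8.03, others 8.13 to 8.14). In heart, 25-week control 4 was low for Bop1 (5.78, others 6.09 to 6.13), 25-week control 3 was low for Brix1 (8.83) and Npm1 (11, others 11.18 to 11.2), and rapamycin mouse 1 was high for Nop58 (8.23, others 7.58 to 7.69).

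The difference between rapamycin mice and 25-week controls differed between tissues for 2 factors in the limma fit over 29 arrays. For Nhp2 it differed between kidney and heart by -0.75. For Polr1a, at its brightest probe, the only one tested here, it differed by 0.44 between kidney and heart and by 0.54 between brain and heart. Over all 30 arrays these values were -1.29, 0.74 and 0.54, with adjusted p-values of 0.07768, 0.07041 and 0.5946.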

How the results depend on the processing

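Outside the settings that leave out a mouse, 188 counts of factors past the test stayed within 1.5 times the value in the report and 19 did not, and 591 values of single factors kept their direction and their side of the threshold, while 23 gained a call, 4 lost one and 6 changed sign. Counts that were 0 in the report and stayed at 0 are among the 188. For age in the 9 kidney arrays the count was 2 (Nhp2 and Pes1) with normexp at an offset of 50, with detection on at least 5 arrays, with the compared groups alone and with any tested probe, and 0 with median scaling. In that order, 1544, 1347, 1400, 1315 and 1295 of all probes passed, against 1315 of 13651 in the main setting. Under any tested probe, the Nhp2 call rests on the dim probe detected in 25-week kidneys alone. With the replicate block the count stayed at 1, but this was Nhp2 in place of Pes1, and the block left the other counts within tissues at 0. Over its alternatives the adjusted p of Pes1 ran from 0.009054 to 0.09923. With all 10 kidney arrays the age count was 2 (Nhp2 and Pes1) with array weights and with the compared groups alone. There 1470 and 1491 of 13805 probes passed. For rapamycin mice against 25-week controls, array weights gave 1 in kidney with 10 and with 9 arrays (Nhp2) and 1 in brain (Pes1). With these weights 2931 of 13805, 2800 of 13651 and 405 of 14473 probes passed. No background correction or normexp at an offset of 50 gave 2 in heart (Pes1 and Polr1a), where 137 and 167 of 13773 probes passed. Leaving out the one kidney array that stood apart gave 18 for kidney against heart and 19 for brain against heart, 3 for age and 2 for rapamycin mice against 25-week controls averaged over tissues, and 2 and 1 for the latter comparison between kidney and heart and between brain and heart. Polr1a between kidney and brain in that comparison turned from 0.19 to -0.10. Leaving the mouse out of the fit (no replicate block) gave 2 for the averaged rapamycin comparison with 25-week controls (Pes1 and Polr1d), where 735 of 17062 probes passed. Under median scaling, kidney minus heart was 0.24 for Brix1 and 0.09 for Gnl3, and brain minus heart 0.17 for Brix1, 0 for Gnl3 and 0.29 for Polr1c, each negative in the main setting. The cause of these changes was not tested.

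Leaving out 1 mouse at a time, the age count ran from 0 to 2 in the 9 kidney arrays (0 without 25-month mouse 1), 0 to 1 in the 10 and 0 to 2 averaged over tissues. Rapamycin against 25-week counts ran from 0 to 2 in the 9 kidney arrays, 0 to 1 in brain (Polr1a without rapamycin mouse 1), 0 to 1 in heart (Pes1 without rapamycin mouse 2) and 0 to 3 averaged over tissues. Where these counts were highest, 2318, 440, 267 and 1646 of all probes passed. Where the age counts were highest, 1615 or 1171 passed in the 9 kidney arrays, 1315 in the 10 and 1197 averaged over tissues. Values that changed sign were Pes1 between rapamycin mice and 25-month controls in heart (-0.08 to 0.10) and between rapamycin mice and 25-week controls in the 10 kidney arrays (-0.24 to 0.10), kidney minus brain for Gnl3 (-0.01 to 0.08) and Nip7 (-0.09 to 0.01) and kidney minus heart for Brix1 (-0.05 to 0.02). With 1 25-month control left, its spread is taken from the other groups. The 25-month group of 2 mice, the lack of replicate arrays of a mouse and the dim signal of Tsr1 and Nolc1 limit what can be seen.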
